A study of Mus musculus with 6 samples.

Results

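The genes described here are those that handle glutathione, thioredoxin and reactive carbonyls in mouse small intestinal organoids, self-organising epithelial cultures raised from crypts. They were chosen by symbol: the glutathione transferases (Gst followed by a class letter and a number), the glutathione peroxidases (Gpx), peroxiredoxins (Prdx), thioredoxin reductases (Txnrd) and aldo-keto reductases of family 1 (Akr1), with Gclc, Gclm, Gss, Slc7a11, Txn1, Srxn1, Nqo1, Hmox1, Nfe2l2 and Keap1. In all 61 of the 19057 genes measured met this rule, which used no expression value. Gsr, also named by the rule, was not analysed here, nor were relatives without a named probe such as Akr1b3, Akr1b7, Prdx5 and Prdx6.

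Expression was read on Illumina arrays from 6 organoid samples, 3 labelled control (strain Villin-Cre) and 3 labelled Snai1 knockout (strain Villin-Cre, Snai1fl/fl). The Villin promoter drives Cre in the intestinal epithelium, so both groups carried the recombinase and both received 0.5 µM tamoxifen, 24 hours before harvest. The labels do not say how many mice the samples came from, so p-values measure the spread between samples, which may be technical. By its title the study asks how Snai1, a zinc-finger repressor, bears on lineage allocation and stem cell maintenance.

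Reduced glutathione is a tripeptide thiol made from glutamate, cysteine and glycine. Glutathione transferases attach it to electrophiles, glutathione peroxidases spend it on peroxides, and peroxiredoxins do the same with electrons from thioredoxin. Aldo-keto reductases convert reactive aldehydes and ketones to alcohols with NADPH. The intestinal lining meets dietary electrophiles first, and many of these genes are driven by the transcription factor Nrf2 (Nfe2l2), which Keap1 holds in check and which binds antioxidant response elements in their regulatory DNA.

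Values are on the deposited log scale, taken as base 2, on which the lowest value was 7.71 and the highest 14.8 with the median of all probes at 7.87. Low values are compressed, so differences of dim genes are understated. Each gene was read by its brightest probe, and a gene is called bright here when its mean over the 6 arrays lay above the upper quartile of all probes, 8.27. That held for 44 of the 61 genes, and 50 lay above the median. Among epithelial markers Krt8 averaged 14.26, Cdx2 12.74, Vil1 11.78 and Cdh1 11.44, while the probe for Epcam averaged only 8.12. Of the enterocyte markers Fabp1 and Fabp2 lay at the bottom of the scale. Markers of fibroblasts (7.81 to 7.92), immune cells (7.81 to 7.90) and endothelium (7.80 to 7.97) were all dim as well, some below and some above the median of all probes. Snai1 itself read 7.91 ± 0.04 in control and 7.91 ± 0.05 in knockout samples (SD, n = 3), too dim to check the labels.

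The regulatory sequences of 4 genes are shown. Akr1b8 is included as the only one of these genes that passed the test in the main fit. Akr1b10 is included as its tandem neighbour and did not pass. Gsta3 and Gstm5 are 2 transferases whose knockout values all lay below their control values. They were picked because they also carry the core of the antioxidant response element, and a link between the 2 features was not tested. Each sequence is the run of 250 bases before the RefSeq transcription start (GRCm38.p6, 5′ to 3′ on the gene's strand). Capitals mark TGACNNNGC, the element's core, or CAGGTG, the E-box that Snail proteins are known to bind, on either strand.
Akr1b8 (chr6:34353896-34354145, + strand): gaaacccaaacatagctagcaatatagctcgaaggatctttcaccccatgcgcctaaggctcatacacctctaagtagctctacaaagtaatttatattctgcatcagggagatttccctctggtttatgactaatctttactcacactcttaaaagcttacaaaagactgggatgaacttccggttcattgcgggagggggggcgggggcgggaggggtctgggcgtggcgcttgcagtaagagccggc
Akr1b10 (chr6:34383997-34384246, + strand): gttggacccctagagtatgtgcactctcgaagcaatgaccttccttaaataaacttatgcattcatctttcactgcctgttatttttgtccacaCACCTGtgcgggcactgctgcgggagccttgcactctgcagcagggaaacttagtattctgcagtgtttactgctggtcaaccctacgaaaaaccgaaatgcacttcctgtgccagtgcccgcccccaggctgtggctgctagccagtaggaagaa
Gsta3 (chr1:21240335-21240584, + strand): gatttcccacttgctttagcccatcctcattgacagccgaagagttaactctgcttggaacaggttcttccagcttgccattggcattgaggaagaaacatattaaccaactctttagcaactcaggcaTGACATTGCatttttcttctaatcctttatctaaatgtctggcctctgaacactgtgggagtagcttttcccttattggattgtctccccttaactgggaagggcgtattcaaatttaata
Gstm5 (chr3:107895604-107895853, + strand): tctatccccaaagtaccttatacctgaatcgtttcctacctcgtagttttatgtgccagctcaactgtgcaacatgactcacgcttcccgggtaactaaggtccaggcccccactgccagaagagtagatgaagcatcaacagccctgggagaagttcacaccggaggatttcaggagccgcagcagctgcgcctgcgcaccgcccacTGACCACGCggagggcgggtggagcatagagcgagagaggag
Neither motif was in the Akr1b8 window. That of Akr1b10 held CAGGTG on the opposite strand at bases -156 to -151, counted from the start. Gsta3 held TGACATTGC at bases -121 to -113, and Gstm5 held TGACCACGC at -42 to -34.

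Windows were found for 56 of the 61 genes, 69 windows in all. TGACNNNGC occurred in 8 of these (11.6%), against 10.2% of all 32851 RefSeq windows of the same length. The other genes with this core were Gclm, Gstm7, Prdx1, Txnrd1, Akr1cl and Nfe2l2, and in each of them control and knockout values overlapped. Among genes whose knockout values all lay below control, the windows of Akr1b8, Akr1e1, Gstp2, Gstt3, Slc7a11 and Srxn1 held no such core. CAGGTG occurred in 9 windows (13.0%), against 17.2% of all windows, and it overlapped a TGACNNNGC core only in Nfe2l2. Neither share is set against a test, and a match is a string of letters, not a site.

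Akr1b8 was the 1 gene of the 61 called in the main fit, which did not use the replicate number as a block. It encodes an aldose-reductase-like enzyme that reduces aliphatic and aromatic aldehydes. Control samples read 9.70, 9.68 and 9.84 for replicates 1 to 3, and knockout samples read 9.07, 9.17 and 9.17. The groups did not overlap, and the lowest control value stood well above the highest knockout value. The means were 9.74 ± 0.09 and 9.14 ± 0.06 (SD, n = 3), so control exceeded knockout 1.52-fold (difference -0.60 ± 0.05, SE; 95% interval -0.73 to -0.47; adjusted p = 0.0271, limma). By unadjusted p it ranked 21 among all genes tested. Over all genes 0.0945% were called lower and 0.131% in either direction. Here 1 of 61 was called lower and none higher (0.0367% of all genes were called higher). Genes that were not called are not shown to be unchanged.

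The fall was seen in each pair of equal replicate number, at -0.64, -0.51 and -0.67. With the replicate number as a block the call was lost (adjusted p = 0.0633, limma), and 9 genes in all (0.0472%) were then called, none of them among the 61. It was lost as well on leaving out any single array, with the difference between -0.63 and -0.55 and the adjusted p between 0.0709 and 0.182.

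**Figure D1:**
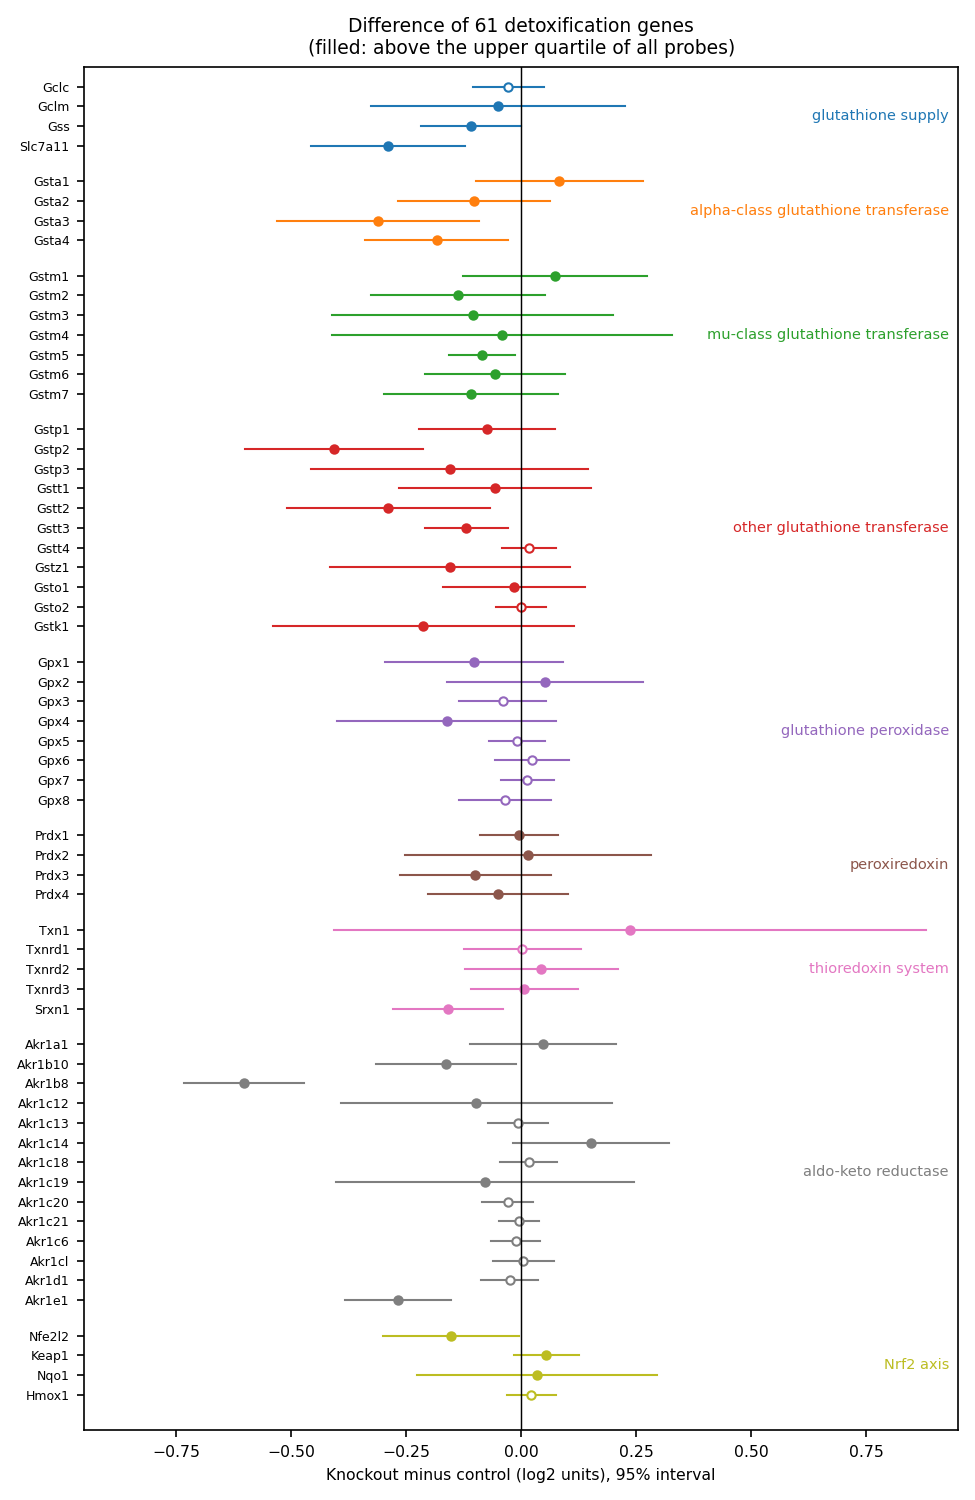
Knockout minus control difference (x axis, log2 units) of the 61 genes, grouped by role, with 95% intervals from limma; filled points are genes above the upper quartile of all probes. Akr1b8 lies farthest from 0 at -0.60, and 43 of the 61 points lie to the left of 0, as did 50.7% of all genes.

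Akr1b10, the tandem neighbour that encodes a related reductase, read 9.31, 9.15 and 9.22 in control and 9.17, 9.02 and 9.00 in knockout samples. The control and knockout values overlapped between arrays, but within each numbered pair the knockout value was the lower. Its difference was -0.16 ± 0.06 (SE; adjusted p = 0.654, limma). A second, dimmer Akr1b10 probe gave -0.05. Akr1b8 has a single probe here, and probes of such close relatives may see each other's transcripts.

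Akr1e1, which encodes a reductase of the sugar 1,5-anhydrofructose, was next among the aldo-keto reductases. Its values were 9.19, 9.24 and 9.27 in control and 8.89, 9.05 and 8.96 in knockout samples, again without overlap. The difference of -0.27 ± 0.05 did not pass (SE; adjusted p = 0.236, limma), nor did it with the replicate block (adjusted p = 0.147). On a scale with the low end stretched it came to -0.42.

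The Akr1c cluster, whose products act on steroids, prostaglandins and xenobiotic carbonyls, had no such separation among its bright genes. Akr1c19 read 14.18, 13.97 and 13.92 in control and 14.22, 13.82 and 13.79 in knockout samples, close to the top of the scale. Akr1c12 averaged 13.44 ± 0.08 and 13.34 ± 0.24 (SD, n = 3). Akr1c14, which encodes a 3-alpha-hydroxysteroid dehydrogenase, differed the other way by 0.15 ± 0.07 (SE; adjusted p = 0.743, limma). Akr1c6, Akr1c13, Akr1c18, Akr1c20 and Akr1c21, with Akr1cl and Akr1d1, averaged at or below the median of all probes, where a difference would be compressed. Akr1a1, which encodes the general aldehyde reductase, averaged 13.74 ± 0.02 and 13.78 ± 0.13.

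Glutathione supply genes all had a lower mean in the knockout samples, 4 of 4, and none passed the test. Over all genes 50.7% had a lower mean, which is the share to set beside this count and those by class below. Slc7a11, the cystine carrier that feeds cysteine into glutathione synthesis, read 8.68, 8.73 and 8.69 in control and 8.32, 8.57 and 8.34 in knockout samples. The 3 control values were nearly equal and all lay above the knockout values. The difference was -0.29 ± 0.07 (SE; adjusted p = 0.350, limma), and -0.61 with the low end stretched. Of 4 further Slc7a11 probes, all dimmer, the brightest gave -0.08 without overlap of the groups (8.08, 8.06 and 8.10 against 7.99, 8.01 and 8.00).

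Gss, glutathione synthetase, was read by 4 probes that differed in size. The brightest gave 10.41, 10.28 and 10.36 in control against 10.22, 10.20 and 10.31 in knockout samples, a difference of -0.11 ± 0.04 (SE; adjusted p = 0.690, limma). The second gave 10.21, 10.11 and 10.21 against 9.89, 9.74 and 9.83, which did not overlap, with a difference of -0.36 ± 0.05 (SE; adjusted p over all probes = 0.141). The other 2 gave -0.06 and -0.16. Gss lies on the chromosome of Snai1, with 162 measured genes between them. Within 30 measured genes of Gss lies Ahcy, a methionine cycle gene that fell by 0.89 (adjusted p = 0.00929, limma). Srxn1 and Nfe2l2 lie on that chromosome too, with 237 and 1002 measured genes between them and Snai1. Gpx1 and Gpx8, elsewhere, each have 2 called genes within 30 measured genes. A role of position was not tested.

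Glutamate-cysteine ligase makes the first bond of glutathione and sets its rate. Its modifier subunit Gclm read 11.07, 10.72 and 10.83 in control and 11.00, 10.72 and 10.75 in knockout samples, a spread shared by equal replicate numbers that exceeded the difference of -0.05 ± 0.11 (SE). Its sign turned on leaving out control replicate 1. The catalytic subunit Gclc was dim, at 8.06 ± 0.02 and 8.03 ± 0.05.

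**Figure D2:**
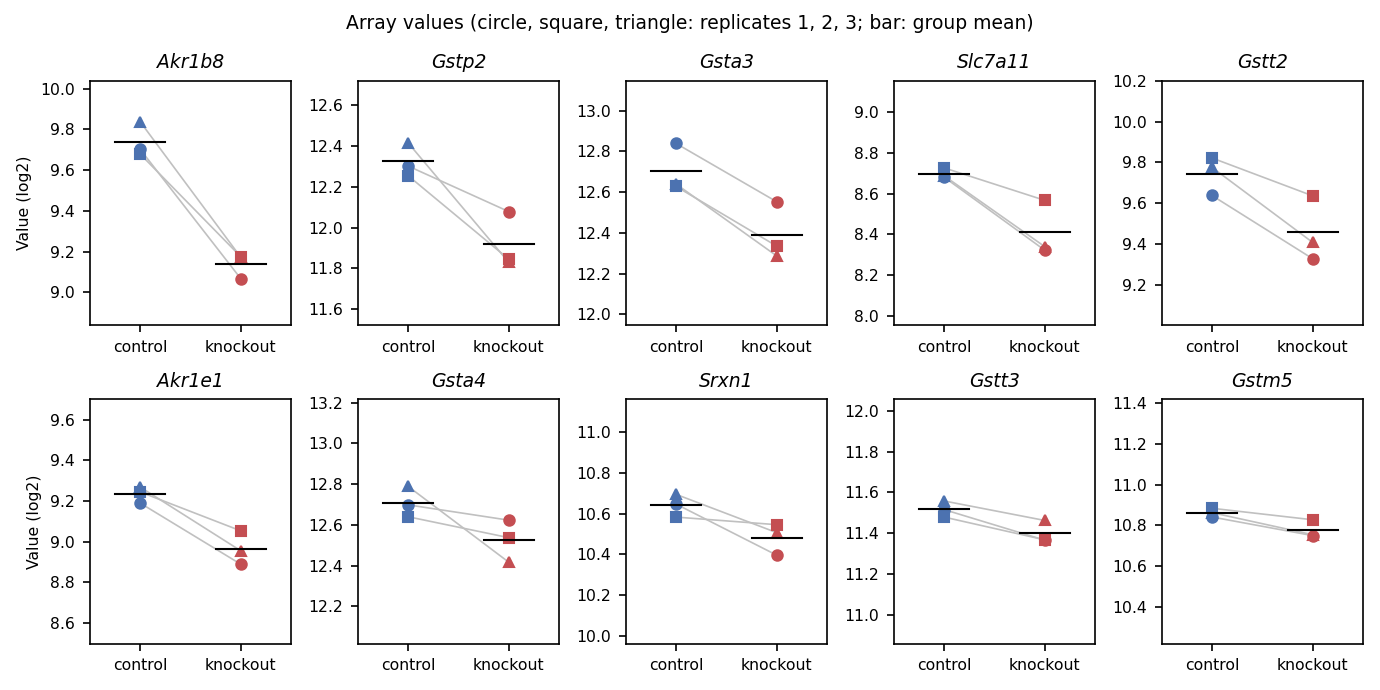
Value on each array (y axis, log2; every panel spans the same width of 1.2 units) of the 10 bright genes whose knockout values all lay below their control values, as was so for 5.85% of all genes; symbols mark the replicate number, grey lines join equal numbers and bars are group means. Only Akr1b8, from 9.74 to 9.14, passed the test over all genes, in the fit without the replicate block.

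Among alpha-class transferases, which act on organic peroxides and products of lipid peroxidation, 3 of 4 had a lower mean and none passed. Gsta3 read 12.84, 12.63 and 12.64 in control and 12.55, 12.33 and 12.29 in knockout samples, without overlap. The fitted difference for Gsta3 was -0.31 ± 0.09 (SE; adjusted p = 0.482, limma). Within pairs it was -0.29, -0.29 and -0.35 (adjusted p = 0.0725 with the replicate block). Gsta4, which conjugates the lipid aldehyde 4-hydroxynonenal, read 12.70, 12.64 and 12.79 against 12.62, 12.54 and 12.42. These did not overlap either, and the difference was -0.18 ± 0.06 (SE; adjusted p = 0.591, limma).

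Gsta1 and Gsta2 were near the top of the scale. Gsta1 averaged 14.21 ± 0.01 in control and 14.30 ± 0.15 in knockout samples, and its sign turned without knockout replicate 2. Gsta2 averaged 14.28 ± 0.11 and 14.17 ± 0.08 (SD, n = 3). The coding sequences of these 2 genes are close, so their probes may not tell them apart.

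The mu class, a chromosome 3 cluster with broad activity on aromatic electrophiles, had 6 of 7 lower means and no call. Gstm5 read 10.84, 10.88 and 10.86 in control and 10.75, 10.83 and 10.75 in knockout samples, a small difference of -0.09 ± 0.03 without overlap (SE; adjusted p = 0.581, limma). Gstm2 read 12.81, 12.78 and 12.59 against 12.69, 12.59 and 12.49, overlapping but lower in each of the 3 pairs. Gstm1, the highest mean of the class, went the other way, 13.89 ± 0.11 and 13.96 ± 0.13 (difference 0.07 ± 0.08, SE). Gstm6 was read by 3 bright probes at -0.06, -0.23 and -0.17. Members of this cluster are alike in sequence, and a probe's gene is only as specific as its design.

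In the remaining classes 10 of 11 genes had a lower mean and none passed. Gstp2, a copy of the pi-class enzyme, read 12.30, 12.26 and 12.42 in control and 12.08, 11.84 and 11.83 in knockout samples. All 3 control values lay above all 3 knockout values, and control exceeded knockout 1.33-fold (difference -0.41 ± 0.08, SE; adjusted p = 0.273, limma). Its neighbour Gstp1, the abundant pi-class enzyme, averaged 14.00 ± 0.10 and 13.93 ± 0.07, with a difference of -0.07 ± 0.06 (SE), and a second bright Gstp1 probe gave 0.06. Whether the 2 genes differ in response was not tested, and their near-identical transcripts may share signal.

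Theta-class transferases, which act on small halogenated compounds among others, included 2 genes without overlap, both lower, where 5.85% of all genes were separated downwards. Gstt2 read 9.64, 9.82 and 9.78 in control and 9.33, 9.64 and 9.41 in knockout samples, with knockout replicate 2 just under control replicate 1. Its difference was -0.29 ± 0.09 (SE; adjusted p = 0.528, limma). Gstt3 read 11.52, 11.48 and 11.56 against 11.37, 11.37 and 11.46 (difference -0.12 ± 0.04, SE; adjusted p = 0.523). Gstt1 differed by -0.06 ± 0.08. Gstk1, the mitochondrial and peroxisomal kappa class, differed by -0.21 ± 0.13 and Gstz1, of tyrosine breakdown, by -0.15 ± 0.11 (SE), while Gsto1 averaged 13.78 ± 0.05 and 13.76 ± 0.12.

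Among glutathione peroxidases only Gpx1, Gpx2 and Gpx4 were bright, and none passed. Gpx2, the gastrointestinal form, read 14.22, 14.32 and 14.17 in control and 14.23, 14.16 and 14.47 in knockout samples, and its sign turned without knockout replicate 3. Gpx1, the ubiquitous form, read 14.11, 14.06 and 14.09 on control and 14.11, 13.80 and 14.04 on knockout arrays. Gpx4, which removes lipid hydroperoxides and guards against ferroptosis, read 13.31, 13.34 and 13.24 against 13.33, 13.13 and 12.94. Its difference was -0.16 ± 0.10 (SE; 95% interval -0.40 to 0.08; adjusted p = 0.847, limma). Gpx3, Gpx5, Gpx6, Gpx7 and Gpx8 averaged between 7.82 and 7.93.

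No peroxiredoxin passed the test, and 3 of 4 had a lower mean. Prdx1, an abundant cytosolic form, read 14.30, 14.29 and 14.38 in control and 14.30, 14.30 and 14.36 in knockout samples, with an overlap of the groups and a difference whose 95% interval ran from -0.09 to 0.08. Prdx3, of mitochondria, read 11.29, 11.22 and 11.16 against 11.21, 10.99 and 11.16, and Prdx4, of the endoplasmic reticulum, 11.96, 12.00 and 11.81 against 11.97, 11.82 and 11.83. Prdx2 averaged 13.45 ± 0.06 and 13.47 ± 0.22 (SD, n = 3).

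In the thioredoxin system 4 of 5 genes had a higher mean, none past the test. Txn1, thioredoxin itself, read 10.94, 10.77 and 11.49 in control and 10.91, 11.28 and 11.72 in knockout samples. The spread within groups exceeded the difference of 0.24 ± 0.26 (SE), and its 95% interval, from -0.41 to 0.88, was the widest of the 61. Txnrd1, the cytosolic reductase, differed by 0.00 ± 0.05, Txnrd2 by 0.04 ± 0.07 and Txnrd3 by 0.01 ± 0.05 (SE). Txnrd1, just under the bright cut at 8.27, and Txnrd3, at 8.42, lay low on the scale, where a difference would be compressed. Srxn1, sulfiredoxin, which repairs over-oxidised peroxiredoxins, was the exception. It read 10.65, 10.58 and 10.69 in control and 10.40, 10.55 and 10.51 in knockout samples, without overlap, and its 3 probes gave -0.16, -0.11 and -0.14 (brightest probe adjusted p = 0.521, limma).

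Of the 4 genes of the Nrf2 axis, none passed, and 3 had a higher and 1 a lower mean. Nfe2l2, the factor itself, read 10.12, 10.07 and 10.11 on control and 10.08, 9.86 and 9.89 on knockout arrays, with the first knockout value inside the control range. It was lower in each pair, by an uneven amount, with a difference of -0.15 ± 0.06 (SE; adjusted p = 0.675, limma). Keap1, its inhibitor, read 10.63, 10.68 and 10.63 against 10.69, 10.74 and 10.67, higher in each of the 3 pairs, with a difference of 0.05 ± 0.03 (SE; adjusted p = 0.804). Its other bright probes gave -0.03, 0.10 and 0.20. Nqo1, the quinone reductase often used as a readout of Nrf2, averaged 10.45 ± 0.15 and 10.48 ± 0.16 with an interval of -0.23 to 0.30. Hmox1, haem oxygenase, was dim at 7.98 ± 0.02 and 8.00 ± 0.02.

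**Figure D3:**
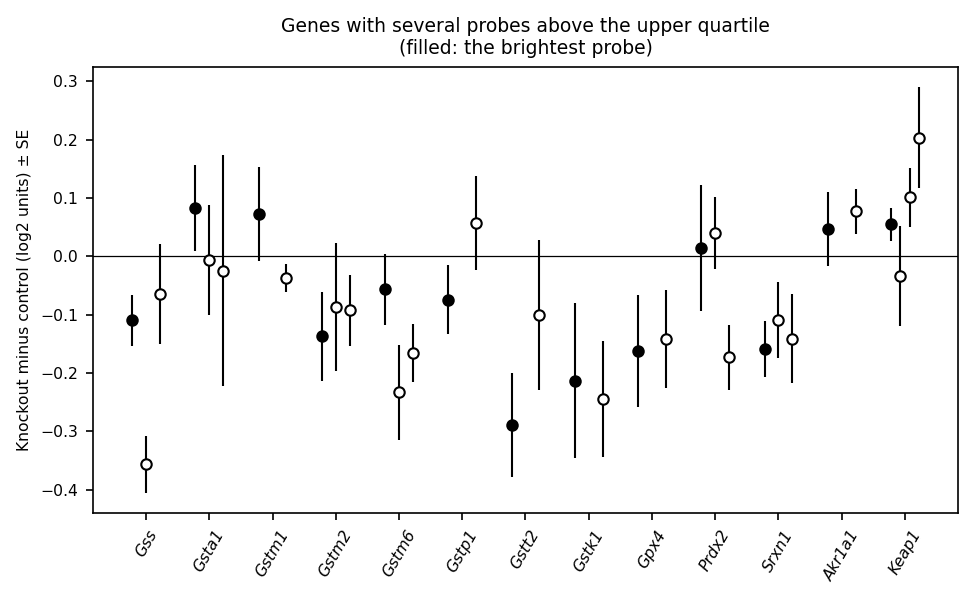
Knockout minus control difference (y axis, log2 units, ± SE from limma) of each bright probe for the 13 genes with more than 1 such probe; filled points are the brightest probe, on which the results rest. All bright probes lay below 0 for 7 of the genes, above 0 for 1 and on both sides for 5, and the 3 for Gss span -0.36 to -0.06.

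Across the 61 genes, 43 had a lower and 18 a higher mean in the knockout samples, or 70.5% lower against 50.7% of all genes. At an unadjusted p under 0.05 in limma 13 of the 61 were lower and 0 higher, while 3.34% of all genes were lower and 3.88% higher. All 13 were bright. Bright genes were 44 of the 61 but only 6971 of all 19057 genes, so the shares over all genes come from a dimmer set. With the replicate block these were 16 and 0, against 5.04% and 5.88%. The groups did not overlap for 11 genes, all lower, where 5.85% of all genes were separated downwards and 6.20% upwards. In 22 genes the knockout sample was lower in 3 of 3 numbered pairs and in 3 higher, against 15.2% and 15.7% of all genes.

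The size of these differences was small. The median was -0.04 over the 61 genes and 0.00 over all genes, and among bright genes it was -0.10 (n = 44) and 0.00 (n = 6971). Bright members had a lower mean in 75% of cases and bright genes at large in 48.6%. The count at an unadjusted p under 0.05 dropped to 6 of 61 with a variance trend and robust fit together or with the low end stretched (3.64% and 3.44% of all genes). It was 6 without control replicate 3 (3.56% of all genes) and 8 without knockout replicate 2 or 3 (2.61% and 2.53%). The count dropped too when only bright genes were fitted. The 61 genes were proposed with earlier results of the same samples known. Several are near-copies whose probes may share signal, so the counts are a description and carry no test.

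**Figure D4:**
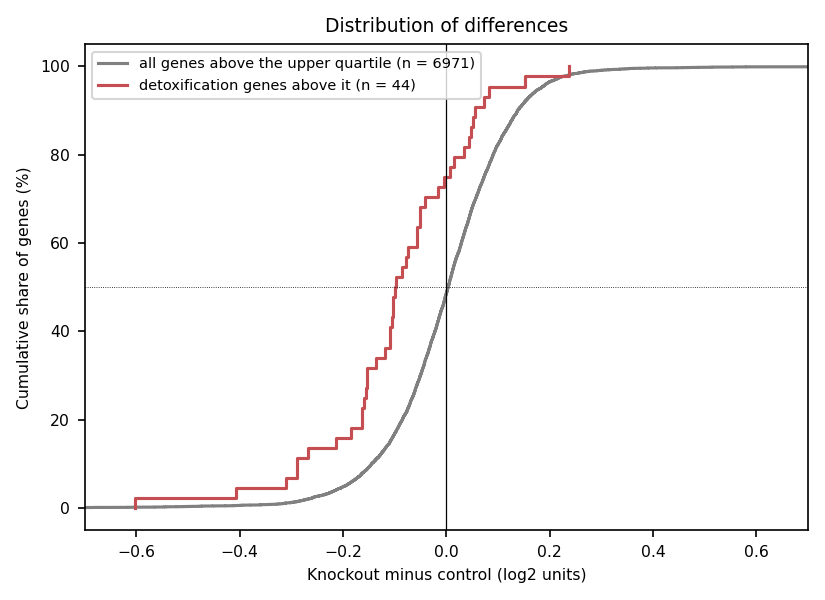
Cumulative share of genes (y axis, %) by knockout minus control difference (x axis, log2 units) for the 44 bright detoxification genes (red) and all 6971 bright genes (grey); Akr1b8 is the lowest red step. The red curve crosses 50% at -0.10 and the grey curve at 0.00.

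By array, the mean over the 61 genes was 10.46, 10.43 and 10.47 in control and 10.41, 10.36 and 10.37 in knockout samples. Of 14 measured enterocyte markers, 11 had a lower mean in the knockout samples (median difference -0.15, none passing), where 50.7% of all genes did. The 11 include Fabp1 and Fabp2, at the bottom of the scale, and Sis, with a difference of -7e-04. Averaged over the markers, enterocyte level ranged from 10.80 to 11.18 in control and from 10.83 to 11.03 in knockout samples. All 6 stem cell markers had a higher mean (median difference 0.18, none passing), with averages of 9.62 to 9.94 and 9.84 to 10.08. Of all 19057 genes, 9393 had a higher mean. For other lineages, the mean was lower for 3 of 6 goblet, 2 of 3 Paneth, 3 of 5 enteroendocrine and 1 of 4 tuft markers, none passing. In bulk samples fewer cells of a type and less RNA per cell cannot be told apart, and the part of cell makeup in the detoxification genes was not tested.

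A list of other genes of the pathway had 71 of its 74 members measured. Of these 39 had a lower and 32 a higher mean (median difference -0.01), none passed, and 1 was lower and 3 higher at an unadjusted p under 0.05 in limma, near the shares of all genes (3.34% and 3.88%). With the replicate block 5 were lower and 5 higher, against 5.04% and 5.88% of all genes. Cbr3, a carbonyl reductase of the short-chain family, read 11.81, 11.66 and 11.59 in control and 12.45, 12.05 and 12.11 in knockout samples. Its values did not overlap and lay in the direction opposite to Akr1b8, by 0.51 ± 0.12 (SE; adjusted p = 0.337, limma). Cul3, the ubiquitin ligase scaffold that works with Keap1, differed by 0.12 ± 0.03 (SE; adjusted p = 0.337) without overlap. Blvrb, a biliverdin and flavin reductase, read 10.68, 10.66 and 10.64 against 10.51, 10.37 and 10.23 (difference -0.29 ± 0.07, SE; adjusted p = 0.353). Nfe2l1, a relative of Nrf2 that drives proteasome genes, differed by 0.20 ± 0.08 (SE; adjusted p = 0.682), also without overlap.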

How the data were processed

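RNA from 6 organoid samples was labelled as biotinylated cRNA and hybridised to Illumina arrays, per the labels' protocols. The authors deposited 1 table of 45281 probes as log values, read as log2; the sorted columns differ by at most 0.0019, so distributions had been equalised. Software, background correction and log base were not given in the sources used here. Depth does not apply to arrays; their number limits precision.

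The platform annotation names 1 gene for 34885 probes, several for 18 and none for 10378. The probe with the highest mean over the 6 arrays stood for each of 19057 genes, with no filter. Knockout was compared with control in limma 3.58.1 (R 4.3.3; lmFit, eBayes without trend; Benjamini-Hochberg over all genes; called under an adjusted p of 0.05). SE and intervals are limma's. No set test was run. Members and lists were chosen with earlier results of these data known. Named with array values were called genes, the 2 of lowest p and the highest mean in each role group, and the 4 of lowest p among other pathway genes; further genes were described after their values were seen. CAGGTG was added as a motif after the data were seen.

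Replicates are numbered 1 to 3 in each group. Over all genes, deviations from the mean of the group correlated at r = 0.35, 0.33 and 0.46 between equal numbers. The labels do not say what equal numbers share. The main fit left this pairing out, and its p-values, SE and intervals are given unless the replicate block is named. With the block no gene of the 61 was called. Promoter windows are RefSeq's, GRCm38.p6. The limma step was run on simulated data with independent noise, no replicate pairing and shifts added to brighter genes only. That run does not cover paired samples or dim genes. Alternatives covered the replicate block, normalization, scale, filters, probes, variance model, array weights and leaving out each array.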

Additional observations from a re-analysis of the deposited data

How the results depend on the processing

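Of 25 named detoxification genes under 15 alternatives, 361 of 375 values kept direction and side of the threshold. Only Akr1b8 was called in the main fit, so for the other genes this meant keeping the sign and staying uncalled. The replicate block, the brightness filters, the fit of all probes and the variance model leave the fitted difference itself unchanged. The total is therefore no measure of robustness. The call of Akr1b8 was lost with the replicate block and without any single array, and kept in the other 8 alternatives (adjusted p 0.00031 to 0.0331, limma). The pairing by replicate number changed no other call among the 61 genes; with this replicate block the count of genes called over all genes was 9 in place of 25, and 0 of the 61. The count over all genes was 42 with the low end stretched, 41 among genes above the upper quartile, 71 with a variance trend and robust fit, and 4 to 23 with 1 array left out. The count among the 61 was 0 whichever array was left out. Their median difference of -0.0416 became -0.0794 with the low end stretched, -0.0763 and -0.0985 among genes above the median and the upper quartile, and ran from -0.0718 to -0.0171 with 1 array left out. Genes lower at an unadjusted p under 0.05 (limma) numbered 13 of 61 in the main fit, against 3.34% of all genes. They numbered 6 with the low end stretched, 6 with a variance trend and robust fit, and 6 to 14 with 1 array left out. Shares of all genes under several of these settings are given with the counts above. Above the upper quartile the count was 7 of 44. No share of all bright genes is set beside it, so it is not read as an excess. Genes with a lower mean numbered 43 in the main fit, where 50.7% of all genes had one, and 42 to 47 with 1 array left out. Signs turned only with 1 array left out. Gclm read 0.0477 without control replicate 1 and 5.72e-06 without knockout replicate 2, in a range of -0.138 to 0.0477. Gsta1 read -0.00123 without knockout replicate 2 and at most 0.146, and Gpx2 -0.0399 without knockout replicate 3 and at most 0.116. Prdx1 read 0.0261, 0.00727 and 0.00335 without control replicate 3, knockout replicate 1 and knockout replicate 2, and -0.0237 at the lowest. The cause was not tested. The compressed low end limits what dim genes can show.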
